A study of Mus musculus with 4 samples.

Results

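The CCN family and the YAP pathway were examined in embryonic fibroblasts with and without stathmin, through 10 genes of the array: the CCN genes Ctgf, Cyr61, Nov, Wisp1 and Wisp2, the YAP target genes Ankrd1 and Amotl2, the coactivator genes Yap1 and Wwtr1, and the kinase gene Lats2. The genes were listed by name and each was taken wherever its symbol stands in the array's own gene name column, which gave 14 probes of 41174 that were not controls, and 10 gene names of 15945 with a tested probe. All 14 probes were tested and all 14 were well above background in both genotypes on all 4 arrays, so no member was lost to a filter.

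STMN1-/- and STMN1+/+ mouse embryo fibroblasts (MEFs), both of strain C57BL/6 and with no treatment named, were compared by hybridising RNA of both genotypes together on each of 4 Agilent 2-color arrays. On replicates 1 and 2 Cy3 marked the STMN1-/- and Cy5 the STMN1+/+ RNA, and the dyes were exchanged on replicates 3 and 4. According to the study's methods, the knockout allele carries a neomycin cassette within Stmn1, which encodes the microtubule destabilizer stathmin, and the MEFs came from single mid-gestation embryos of heterozygous parents and were used at low passage. Which embryo gave the RNA of which array is not stated in the sources used here, and any p-value given here reflects only how far the arrays differed, be that technical or biological.

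Stmn1 itself was lower in STMN1-/- MEFs by both of its probes. On the log2 scale the mean ratio of STMN1-/- to STMN1+/+ signal was -2.16 ± 0.06 (SE, n = 4, limma adjusted p = 0.000602) by A_52_P319161 and -0.39 ± 0.07 (SE, n = 4, limma adjusted p = 0.0181) by A_51_P495641. According to the study, an Agilent Stmn1 probe also matches another chromosome, and the source does not say which of these probes that is. Cross-matches were not analysed here, so the STMN1-/- signals are no measure of remaining Stmn1 transcript. The study states, with a citation, that qRT-PCR and western blotting found neither Stmn1 mRNA nor its protein in STMN1-/- MEFs. All 10 fibroblast markers (collagens, Vim, Pdgfra, Pdgfrb, Thy1 and others) were well above background in both genotypes on all 4 arrays. Their ratios were not even: 8 of the 10 were called higher in STMN1-/- MEFs and 1 lower, with a median log2 ratio of 0.90. Their summed signal ran from 4305930 to 6607030 in STMN1-/- and from 3831220 to 4460360 in STMN1+/+ RNA. A large part of these sums was S100a4, which was not called and gave 1664040 to 2447220 in STMN1+/+ RNA. Its log2 ratios were -1.54 and -1.38 with STMN1-/- RNA in Cy3 and 0.08 and 0.38 with it in Cy5, so the sums depend on the dye orientation. Markers of epithelial cells went the other way from most fibroblast markers, with all 6 tested of 7 listed called lower at a median log2 ratio of -0.89. Their summed signal was 54537 to 63911 in STMN1-/- against 82074 to 92610 in STMN1+/+ RNA. Among them Cdh1 did not stand well above background in the STMN1-/- RNA of any array. Its log2 ratio from the processed signals was -3.41 (limma adjusted p = 0.000602), a size that rests on those dim STMN1-/- signals. Normexp and loess gave a log2 ratio of -0.57 that was not called (limma adjusted p = 0.0627). Epcam was dim in both genotypes. Of 6 endothelial markers Pecam1, Cdh5 and Tie1 were dim in both genotypes, Vwf was called higher (log2 ratio 0.89, limma adjusted p = 0.00296), Kdr lower (-0.72, limma adjusted p = 0.00286) and Tek was not called (0.25). With normexp and loess neither Vwf (0.21) nor Kdr (-0.37) was called. The summed endothelial signal was 1657 to 1980 in STMN1-/- and 2060 to 2379 in STMN1+/+ RNA. Of 5 macrophage markers 1 was called higher and 2 lower, of 7 tested heart and skeletal muscle markers 2 and 2, and of 5 cartilage markers 1 and 2. Over all gene names 13.1% were called higher and 12.2% lower. With normexp and loess the macrophage marker Cd14 was still called lower (limma adjusted p = 0.0490). The macrophage markers Cd68 and Csf1r and the cartilage markers Acan, Col2a1 and Comp lost their calls there. Among the muscle markers Nppa (log2 ratio -1.68, limma adjusted p = 0.000689) and Myh6 (-1.65, limma adjusted p = 0.0311) were lower. Actc1 (0.33) and Myog (0.37) were higher by less. Myh6 did not stand well above background in the STMN1-/- RNA of any array. With normexp and loess Nppa was called lower too, and Myh6 (-0.22), Actc1 and Myog were not called. The part of these shifts in cell type markers in the results below was not tested, and in RNA from whole cultures fewer cells of a type and less RNA per cell cannot be told apart.

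YAP (Yap1) and TAZ (Wwtr1) are transcriptional coactivators that enter the nucleus and bind DNA through TEAD factors. The Hippo kinases, among them LATS1 and LATS2, phosphorylate them and hold them in the cytoplasm. In fibroblasts YAP and TAZ respond to adhesion, cell shape and actin tension, and Ctgf, Cyr61, Ankrd1 and Amotl2 are among the genes most often used to read them out. CCN proteins are secreted, matrix-associated proteins that act through integrins and proteoglycans.

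By the brightest probe of each gene, 3 of the 10 members were called higher in STMN1-/- MEFs (Nov, Wisp1 and Wisp2), 4 were called lower (Ctgf, Ankrd1, Amotl2 and Lats2) and 3 were not called (Cyr61, Yap1 and Wwtr1). Here called means a Benjamini-Hochberg adjusted p under 0.05 by limma over all tested probes. Over all gene names by the same rule, 13.1% were called higher and 12.2% lower. Of the 14 member probes 3 were called higher and 6 lower, beside 11.2% higher and 11.2% lower among the 27648 probes tested. The median log2 ratio of the 10 members was -0.07 beside 0.00 over all gene names.

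**Figure D1:**
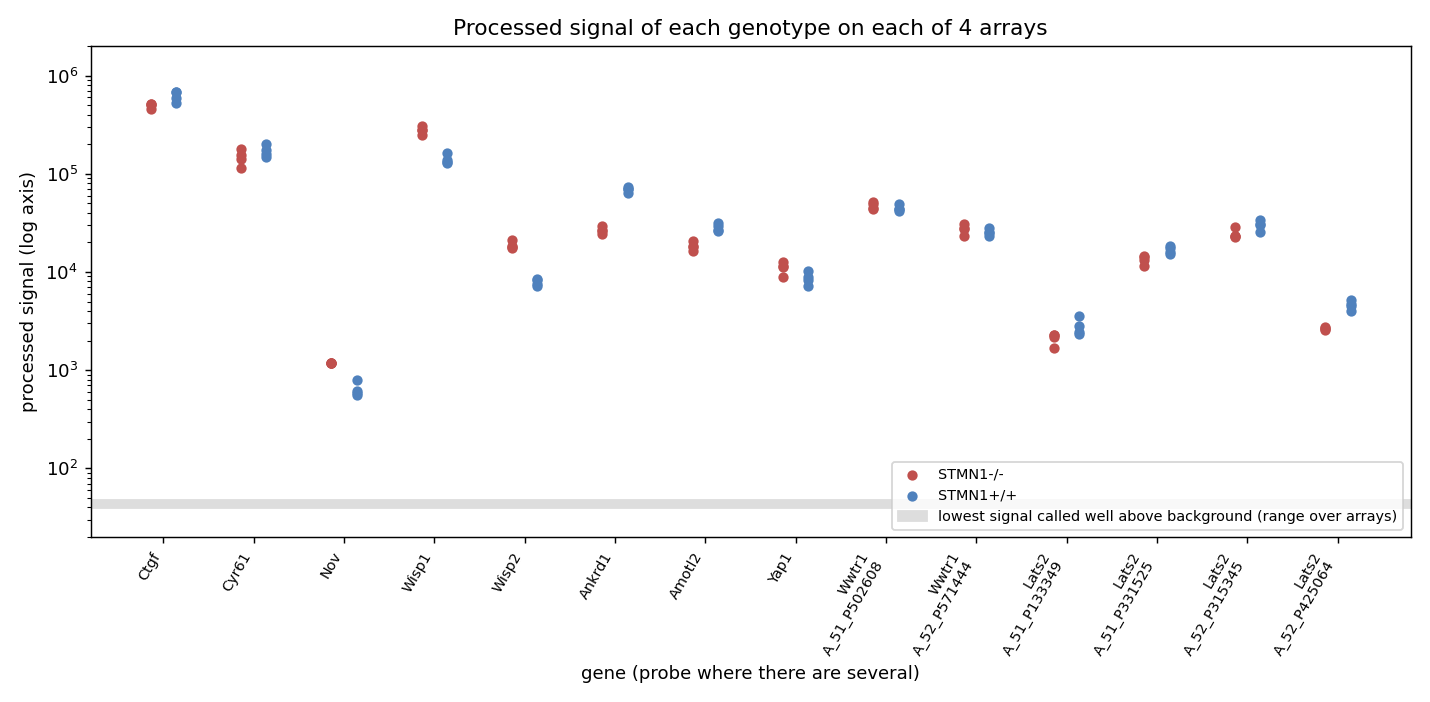
Processed signal (log axis, arbitrary scanner units) of the 14 member probes, with 1 point per array and genotype and a grey band for the lowest signal that was called well above background on each array. STMN1-/- and STMN1+/+ points are apart for Wisp1, Wisp2, Nov, Ankrd1 and Amotl2. They do not overlap for Ctgf and for Lats2 probes A_52_P425064, A_51_P331525 and A_51_P133349 either. They share a range for Cyr61, Yap1, Wwtr1 and Lats2 probe A_52_P315345. Levels of different probes are not comparable. The Ankrd1 point of replicate 4 and the Wwtr1 A_52_P571444 point of replicate 1 are outlier spots and did not enter the test.

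The secreted CCN proteins come first. Each of the 5 genes had 1 probe of 60 bases, and the first 30 bases of each, 5′ to 3′, are given to show what was measured. Positions are in mouse build mm7 as the array files give them.
Ctgf: gtcaaatccctgttggtgaacaaatggcct
Cyr61: aagattagttgggccaagtgaaagccctgc
Nov: aatgaaagatgttccgaatgtaaacttaga
Wisp1: cattcctcatttttctcatgatctgtgtag
Wisp2: gtatttgtaaaaatacacatctcttaaatg
The Ctgf probe lies at chr10:24349402-24349461 on the plus strand, the Cyr61 probe at chr3:145544387-145544446 on the minus strand, the Nov probe at chr15:54812769-54812828, the Wisp1 probe at chr15:67006754-67006813 and the Wisp2 probe at chr2:163573871-163573930, the last 3 on the plus strand. No annotation of that build was used here, so exon and untranslated parts are not named.

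Wisp2 (CCN5), a family member that lacks the C-terminal module of the others and is known for restraining growth of smooth muscle cells, had the highest ratio of the members. Its signals in replicates 1 to 4 were 18085, 18240, 17463 and 20934 in STMN1-/- MEFs and 7485, 8306, 7210 and 8525 in STMN1+/+ MEFs. The genotypes did not overlap. The log2 ratios were 1.27, 1.13, 1.28 and 1.30, a mean of 1.24 ± 0.06 (SE, n = 4) or 2.37-fold up-regulation (limma adjusted p = 0.0008). Between the dye orientations the mean ratios differed by -0.08 (STMN1-/- RNA in Cy3 minus in Cy5).

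Wisp1 (CCN4) was described as a Wnt-induced gene and is made by osteoblasts and fibroblasts. Its signals were 279603, 281777, 246661 and 304549 in STMN1-/- MEFs and 128800, 138651, 133152 and 162480 in STMN1+/+ MEFs, with no overlap. The log2 ratios of 1.12, 1.02, 0.89 and 0.91 gave a mean of 0.98 ± 0.07 (SE, n = 4), 1.98-fold up-regulation (limma adjusted p = 0.00149).

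Nov (CCN3), which can bind Notch1 and often opposes Ctgf, was higher on every array. In STMN1-/- MEFs it gave 1195, 1191, 1197 and 1195, and in STMN1+/+ MEFs 553, 589, 616 and 801. The STMN1-/- signals were nearly the same on every array and the STMN1+/+ signal of replicate 4 was the closest to them. The log2 ratios were 1.11, 1.02, 0.96 and 0.58, with a mean of 0.92 ± 0.10 (SE, n = 4), 1.89-fold up-regulation (limma adjusted p = 0.00574). With normexp background correction and loess the ratio dropped to 0.33 and was no longer called (limma adjusted p = 0.0822).

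Ctgf (CCN2), a matrix-inducing factor and the standard YAP and TEAD readout in fibroblasts, was slightly lower. Its signals were 459410, 513104, 495464 and 507720 in STMN1-/- MEFs and 530948, 590561, 675633 and 678077 in STMN1+/+ MEFs. Every STMN1-/- signal was below every STMN1+/+ signal. The log2 ratios of -0.21, -0.20, -0.45 and -0.42 averaged -0.32 ± 0.07 (SE, n = 4), 1.25-fold down-regulation (limma adjusted p = 0.0348). The call was lost when any 1 of the 4 arrays was left out (limma adjusted p = 0.0747 without replicate 1, 0.0792 without replicate 2, 0.118 without replicate 3 and 0.122 without replicate 4), with normexp and loess (0.0633), with no filter on dim probes (0.0808) and by the methods' t-test (0.0797), while the ratio stayed between -0.36 and -0.28.

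Cyr61 (CCN1), an angiogenic and adhesive CCN protein and another common YAP target, was not called. Its signals were 154451, 177701, 113493 and 142835 in STMN1-/- MEFs and 157848, 148720, 175408 and 202254 in STMN1+/+ MEFs, so the genotypes overlapped. The log2 ratios were -0.03 and 0.26 where STMN1-/- RNA was in Cy3 and -0.63 and -0.50 where it was in Cy5. The mean of -0.23 ± 0.17 (SE, n = 4, limma adjusted p = 0.382) has a 95% interval from -0.65 to 0.20, which includes the Ctgf value. With a dye coefficient added to the fit the adjusted p of limma was 0.0684, which does not pass.

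On each array the lowest ratio of Nov, Wisp1 and Wisp2 lay above the higher ratio of Ctgf and Cyr61, by 0.76 to 1.34 on the log2 scale. These groupings were made after the values were seen, and the gap was not tested. Cyr61 lay above Ctgf by 0.18 and 0.46 on the arrays with STMN1-/- RNA in Cy3, and -0.18 and -0.08 were the same differences with STMN1-/- RNA in Cy5, so no order between those 2 genes held on every array. Wisp2 exceeded Wisp1 in ratio on all 4 arrays, by 0.11 to 0.39.

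**Figure D2:**
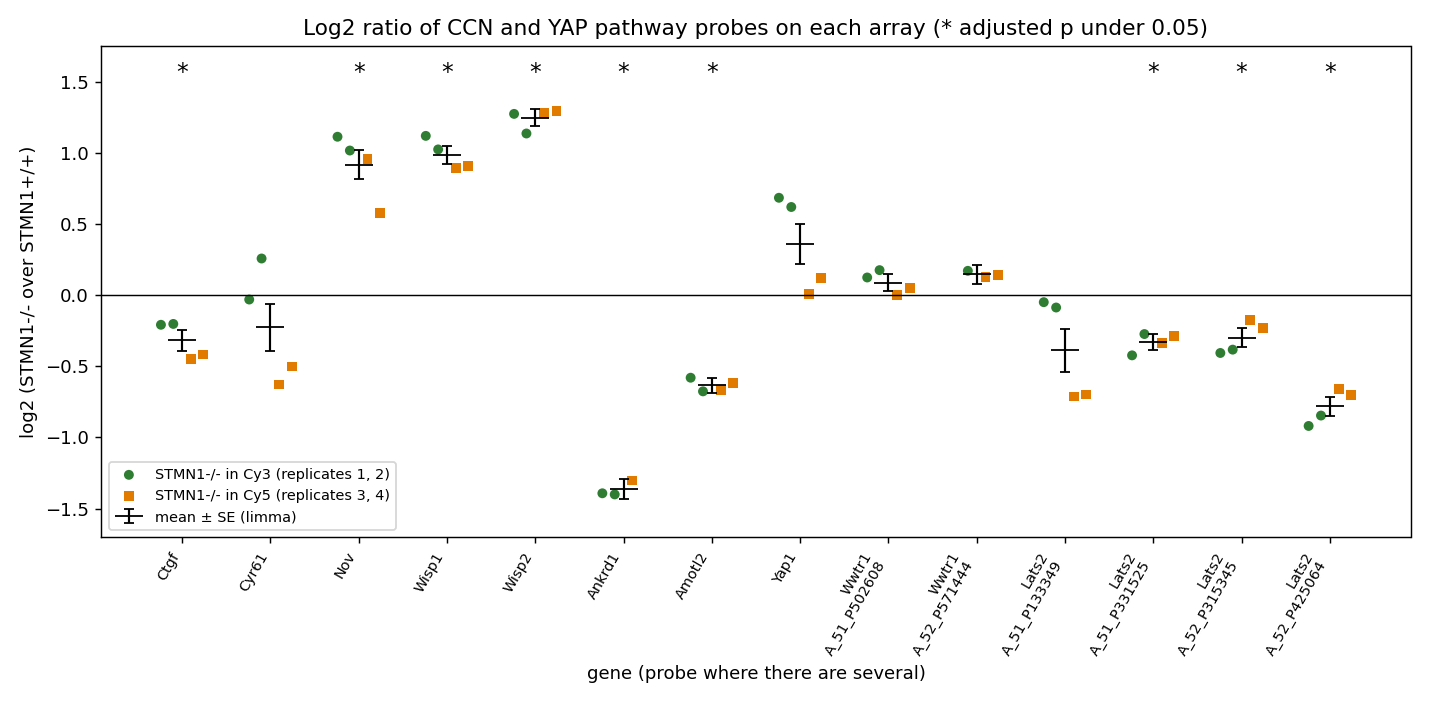
Log2 ratio of STMN1-/- over STMN1+/+ for each member probe, with 1 point per array (circles, STMN1-/- RNA in Cy3; squares, in Cy5), black bars for the mean and SE from limma and a star for an adjusted p under 0.05. Points of both dye orientations lie together for Wisp2, Ankrd1 and Amotl2, whereas for Cyr61, Yap1 and Lats2 probe A_51_P133349 the circles lie 0.59 to 0.68 above the squares on average; outlier spots are left out.

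Ankrd1 and Amotl2, the members taken as YAP target genes outside the CCN family, had lower ratios than Ctgf. The promoters of these genes and of Cyr61 are shown because TEAD factors are known to bind the hexamer GGAATG. They were picked with the ratios known, and TEAD binding was not tested. The hexamer was searched on both strands, as GGAATG and CATTCC, in the 250 bases before each gene's start in the RefSeq table of build GRCm38.p6. Windows were found for 6 of the 10 members (8 windows), and Ctgf, Nov, Wisp1 and Wisp2 had no entry. The hexamer is in capitals.
Ankrd1, chr19:36119845-36120094, minus strand: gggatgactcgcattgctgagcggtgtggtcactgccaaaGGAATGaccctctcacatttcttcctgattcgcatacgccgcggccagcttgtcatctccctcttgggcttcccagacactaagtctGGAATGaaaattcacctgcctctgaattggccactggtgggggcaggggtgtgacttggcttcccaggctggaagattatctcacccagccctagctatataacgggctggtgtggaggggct
Amotl2, chr9:102717554-102717803, plus strand: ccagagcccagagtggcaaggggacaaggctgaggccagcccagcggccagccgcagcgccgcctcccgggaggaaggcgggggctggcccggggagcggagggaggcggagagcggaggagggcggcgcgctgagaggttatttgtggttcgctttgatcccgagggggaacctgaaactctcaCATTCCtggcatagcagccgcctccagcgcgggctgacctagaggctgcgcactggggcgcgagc
Cyr61, chr3:145649986-145650235, minus strand: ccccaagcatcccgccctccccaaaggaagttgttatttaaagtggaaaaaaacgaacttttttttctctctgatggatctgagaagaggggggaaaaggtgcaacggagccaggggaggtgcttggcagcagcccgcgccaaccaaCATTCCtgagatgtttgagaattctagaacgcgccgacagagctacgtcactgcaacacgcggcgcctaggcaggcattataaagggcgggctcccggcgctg
Ankrd1 holds the hexamer at 2 places, beginning 210 and 123 bases before the start, Amotl2 at 1 place 65 bases before it and Cyr61 at 1 place 103 bases before it. It is also in the windows of Yap1, 141 bases before the start, and of Wwtr1, 136 bases before the start in the first of its overlapping windows, and in neither window of Lats2. Of all 32851 windows of this length, 12.6% hold the hexamer and 1.02% hold it at 2 or more places. Cyr61, Yap1 and Wwtr1 hold the letters and were not called, and a match describes the sequence alone.

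Ankrd1, an ankyrin repeat protein of muscle and of stretched or wounded fibroblasts, had the lowest ratio of the members. Its probe A_52_P120803 (mm7 chr19:35813004-35813063, minus strand) gave 24349, 26367, 29500 and 26903 in STMN1-/- MEFs and 63922, 69604, 72753 and 70627 in STMN1+/+ MEFs. The genotypes were far apart on every array. The spot of replicate 4 was marked as an outlier and left out, which leaves log2 ratios of -1.39, -1.40 and -1.30, a mean of -1.37 ± 0.07 (SE, n = 3) and 2.58-fold down-regulation (limma adjusted p = 0.00188). The spot left out had a ratio of -1.39.

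Amotl2, an angiomotin-like junction protein that is induced by YAP and in turn binds and restrains it, was lower on every array. Its probe A_51_P348804 (mm7 chr9:102424871-102424931, plus strand) gave 17879, 18547, 16326 and 20539 in STMN1-/- MEFs and 26739, 29640, 25896 and 31511 in STMN1+/+ MEFs. No STMN1-/- signal reached a STMN1+/+ signal. The log2 ratios were -0.58, -0.68, -0.67 and -0.62, with a mean of -0.64 ± 0.05 (SE, n = 4), 1.55-fold down-regulation (limma adjusted p = 0.00266). The means of the dye orientations were -0.63 and -0.64.

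Of the coactivators, Yap1 (A_51_P152946, mm7 chr9:7956436-7956495, minus strand) gave 11618, 12699, 8865 and 11243 in STMN1-/- MEFs and 7235, 8271, 8822 and 10327 in STMN1+/+ MEFs. The groups overlapped. Its log2 ratios were 0.68 and 0.62 with STMN1-/- RNA in Cy3 and 0.01 and 0.12 with STMN1-/- RNA in Cy5. The mean of 0.36 ± 0.14 (SE, n = 4) was not called (limma adjusted p = 0.136, 95% interval from just under 0 to 0.72), but was called with a dye coefficient in the fit (limma adjusted p = 0.00976), and the dye coefficient itself had an adjusted p of 0.0612 by limma.

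Wwtr1, which encodes TAZ, was read by 2 probes and called by neither. A_51_P502608, the brighter, gave 45259, 49004, 44040 and 51496 in STMN1-/- MEFs and 41547, 43403, 44101 and 49679 in STMN1+/+ MEFs, with log2 ratios of 0.12, 0.18, 0.00 and 0.05 and a mean of 0.09 ± 0.06 (SE, n = 4, limma adjusted p = 0.348, 95% interval -0.06 to 0.24). A_52_P571444, whose letters span 3468 bases of mm7 (chr3:57586143-57589610) and so cross a splice junction, had log2 ratios of 0.17, 0.13 and 0.14 in replicates 2 to 4 and averaged 0.15 ± 0.07 (SE, n = 3, limma adjusted p = 0.203) without its outlier spot in replicate 1, which had a ratio of 0.00. Both intervals leave out a change of the size of Amotl2 in either direction.

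Lats2, the kinase that phosphorylates YAP and TAZ and is itself raised by YAP, was read by 4 probes on the minus strand of chromosome 14. The first 30 bases are printed because the probes differ in place and in ratio.
A_52_P425064: aggctgctacagctttgcagtgtgtgcgaa
A_51_P133349: taaatgggcaacaggaagagtcaacatgat
A_51_P331525: tctgagtacattcagtttcttttgcttttc
A_52_P315345: tcaaggatggaacacatcccattttcatta
In mm7 they lie at chr14:52590323-52590382, chr14:52559057-52559116, chr14:52557919-52557978 and chr14:52557891-52557950. The last 32 bases of A_51_P331525 are the first 32 of A_52_P315345, letter by letter, so these probes are not independent readings. A_52_P425064 is designed on another transcript record, AY015062, and lies further upstream than the others, which are designed on NM_015771.

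A_52_P425064 had the lowest Lats2 ratio. It gave 2718, 2608, 2550 and 2771 in STMN1-/- MEFs and 5141, 4689, 4036 and 4505 in STMN1+/+ MEFs, with no overlap, and log2 ratios of -0.92, -0.85, -0.66 and -0.70 (mean -0.78 ± 0.07, SE, n = 4, 1.72-fold down-regulation, limma adjusted p = 0.00293). The overlapping probes gave smaller ratios, -0.42, -0.27, -0.34 and -0.29 for A_51_P331525 (mean -0.33 ± 0.06, SE, n = 4, limma adjusted p = 0.0172) and -0.41, -0.38, -0.18 and -0.23 for A_52_P315345 (mean -0.30 ± 0.07, SE, n = 4, limma adjusted p = 0.0343). A_52_P315345, the brightest, gave 23459, 23307, 22446 and 28625 in STMN1-/- MEFs and 31101, 30402, 25359 and 33625 in STMN1+/+ MEFs, and these ranges overlapped across arrays though the ratio was below 0 within each array. A_51_P331525 gave 11432, 13197, 14673 and 14226 in STMN1-/- MEFs and 15332, 15955, 18553 and 17379 in STMN1+/+ MEFs, without overlap.

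A_51_P133349 was not called. It gave 2265, 2284, 1701 and 2200 in STMN1-/- MEFs and 2345, 2427, 2788 and 3569 in STMN1+/+ MEFs, so that replicates 1 and 2 nearly met and replicates 3 and 4 stood apart. Its log2 ratios were -0.05 and -0.09 with STMN1-/- RNA in Cy3 and -0.71 and -0.70 with STMN1-/- RNA in Cy5 (mean -0.39 ± 0.15, SE, n = 4, limma adjusted p = 0.131), and it was called with a dye coefficient in the fit (limma adjusted p = 0.00618). The 4 probes thus had one direction on every array and differed in size, with a range between them of 0.47 to 0.87 on the log2 scale within an array. Both overlapping probes lost their call when any 1 array was left out (limma adjusted p from 0.0634 to 0.0728 for A_51_P331525 and from 0.0718 to 0.123 for A_52_P315345), and A_52_P315345 also with normexp and loess (0.0519), with no filter on dim probes (0.0824) and by the methods' t-test (0.0696). A_52_P425064 kept its call in each of these settings.

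The other genes of the pathway were taken from lists that name them by function. Upstream of YAP, 5 of 27 Hippo kinases and regulators were called higher and 3 lower, with a median log2 ratio of 0.02, beside 13.1% higher and 12.2% lower over all gene names. These counts dropped to 2 higher and 1 lower with normexp and loess, and to 1 and 0 without replicate 1 or without replicate 3, 2 and 1 without replicate 2, and 1 and 1 without replicate 4. Over all probes the calls fell in these settings too, with normexp and loess from 3098 higher and 3086 lower to 991 and 1148. The highest were the protocadherin Dchs1 (0.99 ± 0.06, SE, n = 4, limma adjusted p = 0.00131), the FERM protein Frmd6 (0.44 ± 0.09) and Fat4, the Dchs1 partner (0.36 ± 0.06), followed by the kinases Mink1 and Taok3 (both 0.32). Those lower were the angiomotin Amot (-0.51 ± 0.09, SE, n = 4, limma adjusted p = 0.0185), the LIM protein Ajuba (-0.47 ± 0.10) and the phosphatase Ptpn14 (-0.34 ± 0.06). Of these, Dchs1, Frmd6 and Amot were called with normexp and loess as well, and Fat4, Mink1, Taok3, Ajuba and Ptpn14 were not. Lats1, the partner kinase of Lats2, had a log2 ratio of -0.04 ± 0.12 (SE, n = 4, limma adjusted p = 0.830).

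Among the DNA-binding partners, Tead4 was called lower at -1.01 ± 0.08 (SE, n = 4, 2.01-fold down-regulation, limma adjusted p = 0.00237) and Tead2 higher at 0.42 ± 0.07 (SE, n = 4, limma adjusted p = 0.0133). Tead1 (-0.21 ± 0.09, limma adjusted p = 0.156) and Tead3 (0.13 ± 0.08, limma adjusted p = 0.314) were not called. The Tead4 ratio was -0.43 with normexp and loess and missed the threshold there (limma adjusted p = 0.0510). Vgll3, a TEAD cofactor, was lower at -0.44 ± 0.07 (SE, n = 3, limma adjusted p = 0.0223), while Vgll1 was dim. Of the 7 tested in this list 1 gene was called higher and 2 lower, beside 13.1% higher and 12.2% lower over all gene names. Without replicate 1, 3 or 4 the counts were 0 and 1, and without replicate 2 they were 1 and 2.

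Other genes reported as YAP and TAZ targets did not move one way, with a median log2 ratio of -0.17. Of 17 tested, 6 were called higher and 6 lower, beside 13.1% higher and 12.2% lower over all gene names. Higher were Igfbp3, an IGF binding protein (1.45 ± 0.06, SE, n = 4, 2.74-fold, limma adjusted p = 0.000696), the matrix protein gene Ccdc80 (1.16 ± 0.05, 2.23-fold), Fjx1 (0.67 ± 0.11, and 0.25 with normexp and loess, limma adjusted p = 0.0677), Tgfb2 (0.46 ± 0.05), Rbms3 (0.44 ± 0.08) and Nt5e (0.42 ± 0.10). Lower were Crim1, a membrane protein that binds BMPs (-0.97 ± 0.07, SE, n = 4, 1.95-fold, limma adjusted p = 0.00169), the receptor kinase Axl (-0.50 ± 0.10), the kinase Nuak2 (-0.46 ± 0.07, and -0.25 with normexp and loess, limma adjusted p = 0.0778), F3, tissue factor (-0.42 ± 0.07), Ptpn14 (-0.34 ± 0.06) and Dock5 (-0.24 ± 0.05). Rbms3, Nt5e and Ptpn14 also lost their call with normexp and loess, which left 3 higher and 4 lower. With 1 array left out 3 to 5 were called higher and 1 to 3 lower. Over all probes the calls also fell with normexp and loess and with any 1 array left out.

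Of the receptors and coreceptors through which CCN proteins act, 3 of 11 tested were called higher and 2 lower, with a median log2 ratio of 0.00, and Itgam was dim. Higher were the integrin subunits Itgb3 (0.84 ± 0.05, SE, n = 4, 1.79-fold, limma adjusted p = 0.0014) and Itgb5 (0.73 ± 0.05, 1.66-fold) and Notch1, to which Nov can bind (0.47 ± 0.05, and 0.29 with normexp and loess, limma adjusted p = 0.0572). Lower were the laminin receptor subunit Itga6 (-1.44 ± 0.08, SE, n = 4, 2.72-fold, limma adjusted p = 0.00104) and the syndecan Sdc4 (-0.35 ± 0.06, SE, n = 4, limma adjusted p = 0.0153). With any 1 array left out 3 were called higher and 1 lower. Over the 4 lists 15 of 61 different genes were called higher and 12 lower, beside the same 13.1% and 12.2% over all gene names.

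**Figure D3:**
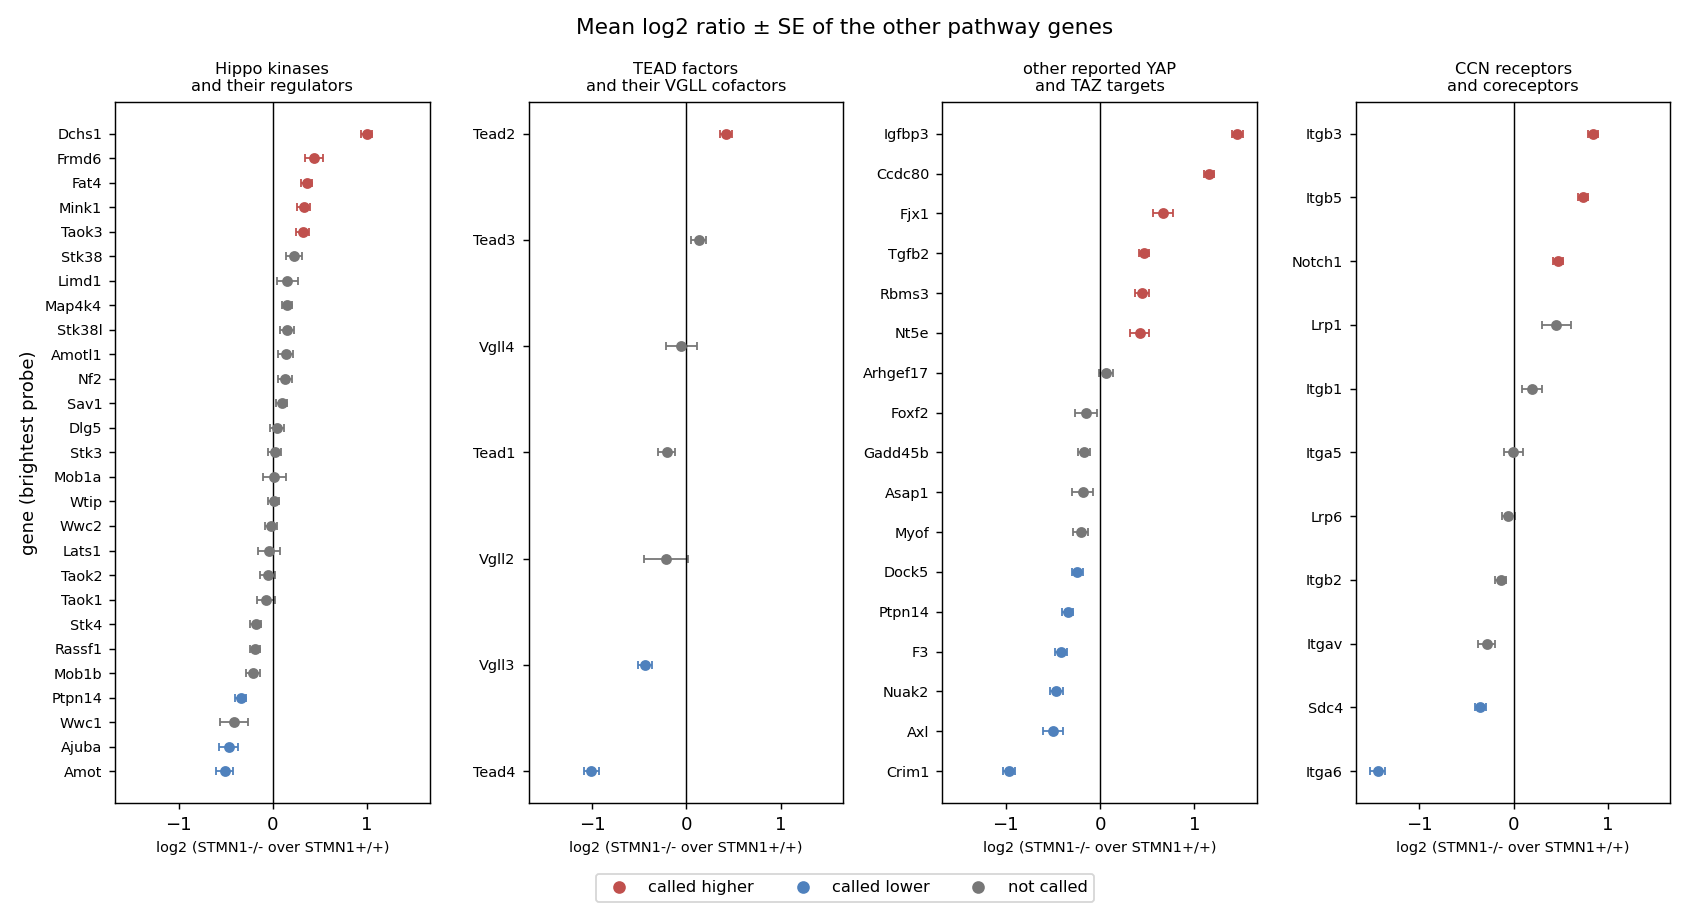
Mean log2 ratio of STMN1-/- over STMN1+/+ with its SE (bars, from limma) for the tested genes of 4 pathway lists, each by its brightest probe, in red where called higher, blue where called lower and grey where not called. Each list holds genes called in both directions, from Igfbp3 at 1.45 to Itga6 at -1.44.

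For the members at the ends of the range, the genes most like them array by array were found by Euclidean distance between log2 ratios. Wisp2 was closest to Cacna1g (distance 0.07, mean log2 ratio 1.23), Fndc1 (0.11, 1.22) and Aldh1a3 (0.13, 1.23) over 4 arrays. By distance over the 3 arrays on which it was measured, Ankrd1 was closest to AI427122 (0.04), Wfdc2 (0.08) and Ngfr (0.11). The mean log2 ratios of these genes, over all arrays that measured them and not only those 3, were -1.46, -1.31 and -1.38.

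**Figure D4:**
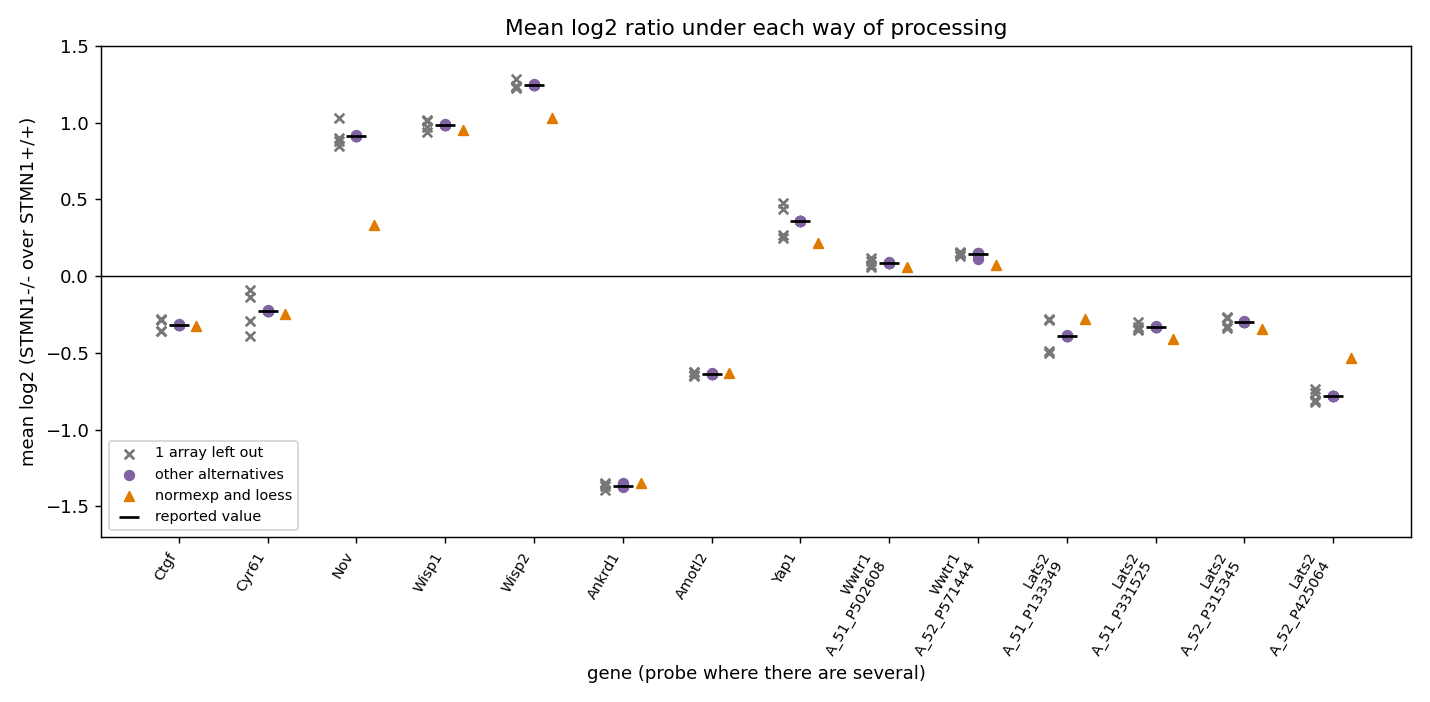
Mean log2 ratio of each member probe as reported (black bar), with 1 array left out (crosses), with normexp and loess (triangles) and in the other settings that give a ratio (circles). No mean crosses 0 in any setting shown, and Nov drops from 0.92 to 0.33 with normexp and loess.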

How the data were processed

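The deposited scanner files of 4 Agilent 2-color arrays were used. Their intensity values were, per the file headers, produced by the authors in Feature Extraction 9.5.3.1 from Agilent, which subtracts the background and normalizes the dyes within each array, and the log10 ratio column of the same deposited files comes from these signals. The authors' own lists of selected probes, which hold log2 ratios of these arrays, were not used.

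Log2 ratios of STMN1-/- over STMN1+/+ were computed from the processed signals and turned by each sample's dye labels. Outlier spots were left out, spots of a probe were averaged, and probes were kept if 1 channel or the other stood well above background on 1 array or more and if 2 or more arrays measured them, 27648 of 41174. Each mean ratio, given with its SE, was tested against 0 by the moderated two-sided test of limma 3.58.1 (R 4.3.3), and p-values were adjusted by Benjamini-Hochberg across every probe tested, with a threshold of 0.05. The steps were tested on simulated data. A gene in a list or a count of genes is represented by its brightest probe. All arrays share 1 scan, so no batch term could be fitted, and no member spot was saturated. On each array 24808 to 25916 probes were well above background in the STMN1-/- channel and 25122 to 26029 in the STMN1+/+ channel; the number of arrays limits the precision.

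The members and lists were chosen with earlier results of these data known. Named genes are all members, up to 6 called genes each way per list, Lats1, Tead1 to Tead4, Stmn1, and the 3 genes nearest to the highest and lowest member. For Ankrd1, measured on 3 arrays, the nearest genes were taken over those arrays, where the rule had asked for 4. Alternatives were median centring, the log10 ratio column, normexp with an offset of 50 followed by loess, dim probes kept, a filter for probes well above background on all 4 arrays, keeping outlier spots, a dye coefficient, the methods' t-test with Benjamini-Hochberg adjustment, the median over a gene's probes, and each array left out. Promoter windows came from RefSeq's table of GRCm38.p6; no coordinates were converted between builds. Figures were drawn with matplotlib in Python, pandas and numpy.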

Additional observations from a re-analysis of the deposited data

Results flagged for a closer look

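The Wisp2 log2 ratio of replicate 2, 1.13, stood apart from the 3 other arrays by 0.855 of the whole range of the 4 arrays, which is above Dixon's critical value. It was the only one of the 12 member probes measured on all 4 arrays to do so, and chance flags about 1 in 20 groups. The ratios of the 4 arrays run from 1.13 to 1.30, and leaving out replicate 2 gave a mean log2 ratio of 1.28 (limma adjusted p = 0.00841).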

How the results depend on the processing

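No log2 ratio of a member changed sign in any setting tried. With 1 array left out, 3 members were called higher and 2 lower each time, against 3 and 4 with all arrays, and the genes of the 4 pathway lists gave 7 to 11 higher and 3 to 7 lower, against 15 and 12. All probes gave 1460 to 1649 higher and 1348 to 1537 lower, against 3098 and 3086. With normexp and loess 2 members were called higher and 2 lower, 8 list genes higher and 8 lower, and 991 probes higher and 1148 lower. With no filter on dim probes the calls were 3 and 2 for members, 11 and 8 for list genes, and 1970 and 1871 for probes. By the methods' t-test they were 3 and 2, 9 and 10, and 1975 and 1882. With a dye coefficient they were 4 and 4, 21 and 20, and 5356 and 5346. Of the member probes, Ctgf and Lats2 A_52_P315345 lost their call in the settings given above, Lats2 A_51_P331525 with any 1 array left out, Nov with normexp and loess (0.33), and Yap1 (0.36) and Lats2 A_51_P133349 (-0.39) gained one with a dye coefficient. The cause was not tested. Each ratio already pairs the genotypes within an array; the methods describe color-swap duplicates, but which arrays form a swapped pair is not stated in the sources used here, and no pairing of arrays was run. A dye effect cancels in the mean of 4 arrays but not in that of 3, as for Ankrd1 and for 1 Wwtr1 probe.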
